A study of Mus musculus with 16 samples.

Results

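The stem and progenitor factor genes Tal1, Lyl1, Lmo2, Runx1, Fli1 and Erg were examined for accessible chromatin. They are 6 of the 7 genes of the group known as the heptad, whose other gene, Gata2, was left out here. An accessible region was counted as theirs when any base of it lay within 100 kb of the 5′ end of the gene in the mouse annotation (GENCODE M21, build mm10). By that rule 150 of 90549 merged regions belonged to the 6 genes, and 104 of these 150 had a peak in at least 4 of the 16 libraries and entered the test, as did 57174 regions genome-wide.

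The study asked how GATA2 and 9aa-Ins, a GATA2 variant with 9 amino acids inserted between its zinc fingers, act on chromatin in blood progenitors. All 16 libraries came from ATAC-Seq, in which the Tn5 transposase cuts accessible DNA. The cells were progenitors of mouse fetal liver, immortalized by HoxB8 under the control of estrogen and grown with β-estradiol. Each culture received a GFP retrovirus for 3 d and was sorted for GFP before the assay. There were 4 groups of 4 libraries: hi-77+/+ empty (the Gata2 -77 enhancer intact, empty vector), hi-77-/- empty (both copies of that enhancer deleted, empty vector), hi-77-/- GATA2 (deleted, GATA2 vector) and hi-77-/- 9aa-Ins (deleted, 9aa-Ins vector). Intact and deleted cells are separate immortalized lines, so line and genotype cannot be told apart. HoxB8 was kept active in every group, and GATA2 and 9aa-Ins came from the vector rather than from the Gata2 locus. The study's methods call the 4 libraries of a group biological replicates. No source used here ties them to separate animals, so p-values measure the spread between these libraries, which may be technical. For the hi-77-/- groups the methods name a peak caller setting that they do not name for hi-77+/+, so a difference in peak calling and one in genotype cannot be told apart either.

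Heptad proteins bind together at enhancers of blood stem and progenitor cells, and each of their genes is controlled in part by such enhancers. TAL1 and LYL1 are related basic helix-loop-helix factors that pair with E proteins on E-box sequences, and LMO2 is a LIM protein that bridges them to GATA factors without touching DNA. RUNX1 is the runt-domain factor needed for the first definitive blood stem cells, and FLI1 and ERG are closely related ETS factors.

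The deposited peaks carry no read counts, so depth is unknown and a region was followed by its rank. The 49000 most significant peaks of each library were ranked, and the rank percentile of a region is 100 for the most significant peak, near 0 for the last and exactly 0 where the list had no peak there. Differences between groups are given in points of this percentile with the limma standard error, and adjusted p-values are from limma with Benjamini-Hochberg adjustment over all 57174 tested regions. A 0 means that no peak was among the 49000, not that the chromatin was closed, and a weaker peak could still stand in the deposited list. Statements on the presence of a peak refer to the 49000 unless the full deposited lists are named. Fold enrichments from the full lists are ratios over background that were neither scaled between libraries nor tested. Since cells were assayed in bulk, a lower rank from fewer cells with open chromatin and one from less opening per cell cannot be told apart.

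Between 49852 and 111743 peaks on chromosomes 1 to 19 and X were deposited per library. The targeted interval, 76 to 78 kb upstream of Gata2, had 1196 to 1414 bp under peaks in the hi-77+/+ empty libraries, 0 to 609 bp in hi-77-/- empty, 0 to 246 bp in GATA2 and 0 to 607 bp in 9aa-Ins. All 16 libraries had a peak over the 5′ end of 6 of the 7 progenitor markers (Ptprc, Kit, Cd34, Myb, Spi1 and Cebpa), and 15 had one at the other marker, Mpo. None had a peak at the hepatocyte genes Alb, Afp, Ttr and Apoa1 or at the endothelial genes Cdh5, Kdr and Tek. Of the other markers, Klf1, Epor and Itga2b had a peak in 16 libraries, Col1a1 in 15, Pdgfrb in 4, Hba-a1 and Pf4 in 1 each, and Col1a2 and Pax5 in 0.

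The windows below show 201 bases around the summit of the best-ranked peak of 8 regions, on the plus strand of the GRCm38.p6 reference. They are intronic and intergenic regions taken from the 8 largest calls for GATA2 against the empty vector and from the 8 regions of largest change among those with a peak in 4 of 4 libraries of one group and 0 of 4 of another. Regions are named by the gene and the distance of their midpoint from its 5′ end in kb, downstream positive. Capitals mark the GATA motif that GATA2 binds, searched on either strand as AGATAA or AGATAG or TGATAA or TGATAG. The first 3 were higher with GATA2 than with the empty vector and the next 5 were lower.
Runx1 +61.1 kb: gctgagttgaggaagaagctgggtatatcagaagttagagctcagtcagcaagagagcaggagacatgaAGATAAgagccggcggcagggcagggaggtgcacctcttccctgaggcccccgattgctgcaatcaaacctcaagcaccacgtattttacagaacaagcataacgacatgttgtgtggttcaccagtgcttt
Tal1 +18.5 kb: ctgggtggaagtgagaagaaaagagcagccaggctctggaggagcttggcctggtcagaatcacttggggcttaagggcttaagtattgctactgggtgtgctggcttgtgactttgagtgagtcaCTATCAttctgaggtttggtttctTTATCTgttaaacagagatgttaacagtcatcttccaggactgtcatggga
Lyl1 +29.4 kb: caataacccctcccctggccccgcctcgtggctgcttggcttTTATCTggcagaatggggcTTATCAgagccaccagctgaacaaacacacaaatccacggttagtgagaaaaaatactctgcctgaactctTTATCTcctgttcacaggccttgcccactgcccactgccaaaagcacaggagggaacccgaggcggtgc
Runx1 -78 kb: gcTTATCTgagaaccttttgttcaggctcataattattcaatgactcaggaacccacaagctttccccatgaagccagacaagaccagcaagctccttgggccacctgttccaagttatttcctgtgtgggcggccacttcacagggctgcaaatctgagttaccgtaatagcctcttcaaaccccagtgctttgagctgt
Lyl1 -19 kb: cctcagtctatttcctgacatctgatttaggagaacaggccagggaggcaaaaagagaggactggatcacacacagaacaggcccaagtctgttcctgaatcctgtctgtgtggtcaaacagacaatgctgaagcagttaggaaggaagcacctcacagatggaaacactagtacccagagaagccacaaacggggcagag
Lmo2 -56.3 kb: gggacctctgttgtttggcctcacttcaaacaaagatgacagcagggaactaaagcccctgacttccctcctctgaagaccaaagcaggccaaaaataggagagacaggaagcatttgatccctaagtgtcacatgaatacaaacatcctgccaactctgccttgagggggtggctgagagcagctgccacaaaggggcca
Runx1 -95.8 kb: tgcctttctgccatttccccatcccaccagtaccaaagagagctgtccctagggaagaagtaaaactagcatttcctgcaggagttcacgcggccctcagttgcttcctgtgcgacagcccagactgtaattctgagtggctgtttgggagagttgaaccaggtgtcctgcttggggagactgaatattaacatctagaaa
Lmo2 -21.2 kb: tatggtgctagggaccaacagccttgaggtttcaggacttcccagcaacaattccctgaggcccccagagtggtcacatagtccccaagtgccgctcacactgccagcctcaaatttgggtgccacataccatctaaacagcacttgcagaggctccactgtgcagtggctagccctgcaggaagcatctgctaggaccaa

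The 8 windows lie at chr16:92764851-92765051 (Runx1 +61.1 kb), chr4:115074860-115075060 (Tal1 +18.5 kb), chr8:84730847-84731047 (Lyl1 +29.4 kb), chr16:92904091-92904291 (Runx1 -78 kb), chr8:84682308-84682508 (Lyl1 -19 kb), chr2:103901551-103901751 (Lmo2 -56.3 kb), chr16:92921976-92922176 (Runx1 -95.8 kb) and chr2:103936698-103936898 (Lmo2 -21.2 kb). A GATA motif was found in each of the first 3 windows and in 1 of the next 5. Over all 90549 regions, 26.5% of windows of this length held the motif, and over the 150 regions near the 6 genes 28.0% did (42 regions).

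Accessible regions were most numerous around Lyl1, with 38, followed by Lmo2 with 30, Tal1 with 25, Fli1 with 24, Runx1 with 23 and Erg with 10. Lyl1 lies in a gene-dense stretch, and only 5 of its 38 regions were nearer to Lyl1 than to the 5′ end of another protein-coding gene, against 23 of 23 for Runx1, 23 of 30 for Lmo2 and 20 of 24 for Fli1. Tal1 was nearest to 9 of 25 and Erg to 6 of 10. By annotation 72 of the 150 regions were intergenic, 49 intronic, 21 at a promoter (within 1 kb of a protein-coding transcript start) and 8 exonic. A peak was present in all 16 libraries at 43 regions and in 1 library at 21. Erg had no region with a peak in all 16 libraries, whereas Lyl1 had 13, Tal1 9 and Lmo2, Runx1 and Fli1 7 each.

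Loss of the -77 enhancer went with the most calls near these genes. With hi-77+/+ empty as the reference, 27 of 104 regions in hi-77-/- empty were called higher (26%, against 21.2% of all tested regions) and 23 lower (22.1%, against 19.2%). GATA2 against the empty vector in hi-77-/- cells gave 8 higher (7.69%, against 8.50%) and 12 lower (11.5%, against 12.4%). For 9aa-Ins against the same empty-vector libraries there were 3 higher (2.88%, against 5.29%) and 2 lower (1.92%, against 1.75%). Set directly against GATA2, 9aa-Ins had 11 higher (10.6%, against 16%) and 10 lower (9.62%, against 8.22%). Most of these shares were near the background, and none is read as particular to the 6 genes. The enhancer-loss, GATA2 and 9aa-Ins comparisons share the hi-77-/- empty libraries, which enter enhancer loss with the opposite sign. A region higher after enhancer loss and lower with GATA2 thus does not rest on separate libraries. The values are therefore given side by side only.

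The split between higher and lower calls moved with the peak list. With all deposited peaks in place of the first 49000, deletion gave 15 higher and 40 lower, and the more significant 50% of each list gave 14 and 20, while 9aa-Ins against GATA2 gave 38 higher and 3 lower with all deposited peaks. With all deposited peaks the median difference over all regions was itself -4.35 points for deletion and 11.83 points for 9aa-Ins against GATA2, where it was 0.00 and 0.25 in the main lists. When a region had to be covered by peaks over 50% of its length, GATA2 gave 0 higher and 14 lower, 9aa-Ins gave 7 higher and 2 lower, and 9aa-Ins against GATA2 gave 20 higher and 5 lower. Among peaks with a -log10 q of at least 5, GATA2 gave 6 higher and 17 lower and 9aa-Ins against GATA2 16 higher and 7 lower, and among peaks narrower than 1 kb the latter was 14 and 6.

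**Figure D1:**
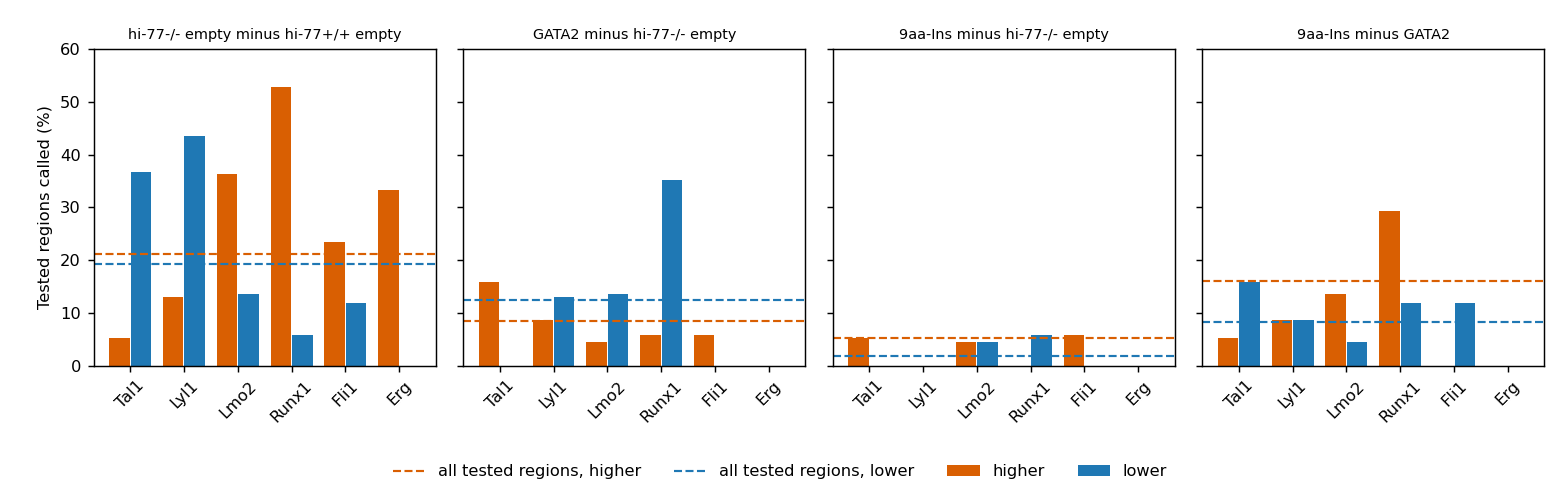
Share of tested regions called higher or lower (percent, bars) near each gene in the 4 comparisons, with dashed lines for the share over all 57174 tested regions. Runx1 had 52.9% of its 17 tested regions higher after enhancer loss and 35.3% lower with GATA2. Lyl1 had 43.5% of 23 lower after enhancer loss, beside 44.7% of all tested regions of its chromosome 8.

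The presence of peaks gave a second view. After enhancer loss, 9 regions near the 6 genes went from 0 of 4 intact libraries with a peak to 4 of 4 deleted ones, as did 3.59% of the 90549 regions, and 5 showed the opposite (2.11%). With GATA2, 4 regions gained a peak in this sense (1.73%) and 5 lost one (2.23%). For 9aa-Ins against the empty vector 0 were gained (1.35%) and 1 lost (0.171%), and for 9aa-Ins against GATA2 4 were gained (2.97%) and 2 lost (1.47%). These are counts without a test.

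Runx1 and Lyl1 were the genes whose number of accessible regions separated the deleted from the intact cells. Near Runx1, the hi-77+/+ empty libraries had 9, 10, 10 and 8 regions with a peak and the hi-77-/- empty libraries 14, 15, 17 and 15. The groups did not overlap, and the mean was 6.0 higher after enhancer loss (exact permutation test, two-sided, p = 0.0286, the smallest that 4 against 4 libraries allow). With all deposited peaks the Runx1 difference was 3.75 (exact permutation p = 0.143). Over all of chromosome 16, where Runx1 lies, the lists held 1361 to 1460 peaks in hi-77+/+ empty and 1519 to 1606 in hi-77-/- empty. The part of this chromosome-wide rise in the Runx1 number was not tested. Lyl1 went the other way, from 28, 25, 26 and 24 regions to 20, 18, 18 and 18, a mean difference of -7.25 (exact permutation p = 0.0286). The lists also held fewer peaks on all of chromosome 8, where Lyl1 lies. They had 3743 to 3908 in hi-77+/+ empty and 2551 to 2864 in hi-77-/- empty, so the Lyl1 number is not read as particular to the gene. The means in GATA2 and 9aa-Ins libraries were 15.2 and 14.8 for Runx1 and 19 and 19.2 for Lyl1, close to hi-77-/- empty at 15.2 and 18.5. Non-overlap of this kind was found at 22.1% of 20142 protein-coding genes for enhancer loss and 9.71% for GATA2. With 9aa-Ins it was found at 4.83% against the empty vector and 11.3% against GATA2, and at 0 of the 6 genes in the last 3 comparisons. Tal1 went from a mean of 17 ± 2.16 to 13.5 ± 1.0 (SD, n = 4 libraries; exact permutation p = 0.0571), and Lmo2, Fli1 and Erg had exact permutation p of 0.114, 0.743 and 0.571.

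**Figure D2:**
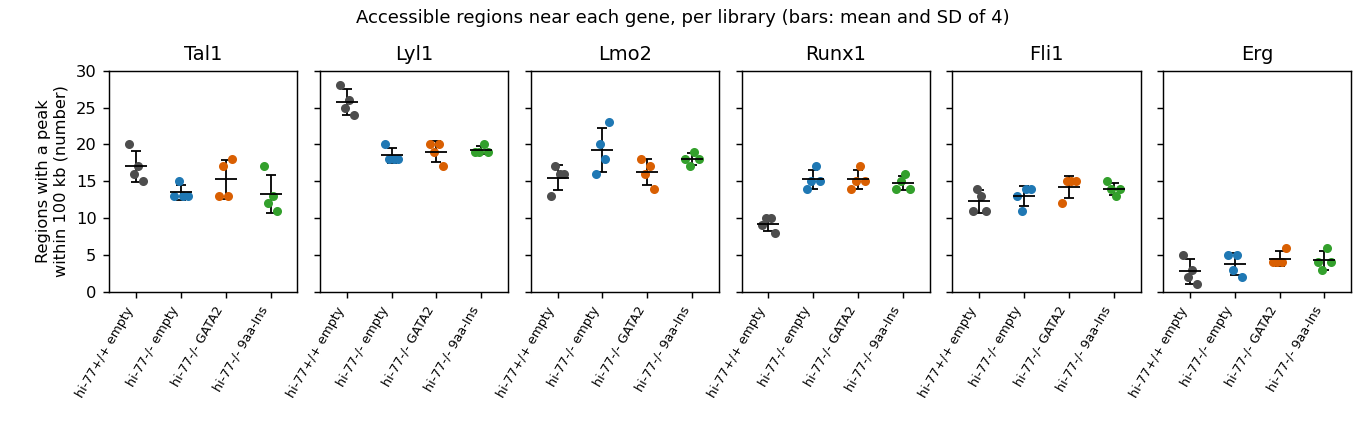
Number of regions with a peak within 100 kb of each gene (y axis) in each of the 16 libraries (points), with the mean and SD of the 4 libraries of a group. The hi-77+/+ empty points lie below all others near Runx1, at 8 to 10, and above all others near Lyl1, at 24 to 28. Lyl1 lies on chromosome 8, where the lists of the deleted groups held fewer peaks throughout, and Runx1 on chromosome 16, where they held more.

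Tal1 (ENSMUSG00000028717.12, plus strand, chr4:115056426-115071755) had 3 of the 8 regions called higher with GATA2, all downstream of the gene. TAL1 is required for the formation of all blood lineages. At Tal1 +18.5 kb (chr4:115074725-115075086, intergenic, nearest to Pdzk1ip1) the rank percentiles were 3.8, 16, 4.8 and 28.0 in hi-77+/+ empty, 0 in all 4 hi-77-/- empty libraries, 59.0, 55.1, 58.1 and 31.9 with GATA2 and 0 in all 4 with 9aa-Ins. The GATA2 libraries were above every library of the other groups. The difference was 51.0 ± 7.09 points over the empty vector (SE, adjusted p = 2.21e-05) and 9aa-Ins was lower than GATA2 by the same amount (adjusted p = 2.47e-05). Both calls held in each of the 8 other settings that tested the region and without any one library. In the full deposited lists the fold enrichment at this region was 6.01, 6.92, 5.86 and 8.09 in hi-77+/+ empty, 8.46, 9.91, 9.18 and 7.50 with GATA2 and 3.78 in 1 library with 9aa-Ins, and no peak was listed in hi-77-/- empty.

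Tal1 +39.8 kb (chr4:115095572-115096969), at the erythroid element called Tal1 +40, was open in all 16 libraries. It stood at 69.2, 67.5, 80.4 and 66.1 in hi-77+/+ empty, 62.6, 57.3, 70.1 and 76.3 in hi-77-/- empty, 74.9, 85.3, 83.0 and 86.1 with GATA2 and 57.5, 53.4, 56.6 and 65.5 with 9aa-Ins. The GATA2 libraries did not overlap with those of 9aa-Ins, the difference being -24.1 ± 4.47 points for 9aa-Ins (adjusted p = 0.000452), and reached into the range of hi-77-/- empty. The increase over the empty vector, 15.7 ± 4.47 points (adjusted p = 0.015), had an adjusted p of 0.0612 without hi-77-/- empty replicate 2 and 0.0512 without GATA2 replicate 4, and with 50% coverage required the difference was -3.00 points (adjusted p = 1.0). It missed the threshold in 4 of 10 other settings, and the difference of 9aa-Ins from GATA2 did in 3 of 10.

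Over the 5′ end of Tal1 itself the rank was higher in the deleted cells. Tal1 +0.8 kb (chr4:115056348-115058041) was at 71.4, 70.4, 67.1 and 71.9 in hi-77+/+ empty and at 88.0, 86.2, 78.2 and 84.2 in hi-77-/- empty, with no overlap, a difference of 14 ± 2.47 points (adjusted p = 0.00018). Group means with GATA2 and 9aa-Ins were 82.4 ± 3.6 and 84.9 ± 2.8 (SD, n = 4). The region spans 1694 bp, and among peaks narrower than 1 kb the difference was -12.94 points (adjusted p = 0.783), while with all deposited peaks it was 5.47 points (adjusted p = 0.0716). A small region over a later Tal1 transcript start, Tal1 +3.7 kb, had a peak in all 4 hi-77+/+ empty libraries, at 45, 4.7, 4.8 and 28.0, and in none of the other 12. The full lists added 1 peak, in a 9aa-Ins library. The region entered the test through the intact libraries alone, so no test is read for it. The element at Tal1 -3.6 kb, near the enhancer named Tal1 -4, was at group means of 65.9, 62.6, 63.6 and 56.1 in the order of groups above, and passed no test.

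In all, 1 of 19 tested regions around Tal1 was higher after enhancer loss and 7 were lower, 3 were higher and 0 lower with GATA2, and 1 was higher with 9aa-Ins. On chromosome 4 as a whole, 20.8% of tested regions were higher and 17.7% lower after enhancer loss, and 8.0% and 12.5% with GATA2. With 9aa-Ins the shares there were 4.51% and 1.99%. The region higher with 9aa-Ins was Tal1 -62 kb (chr4:114994323-114994541, intergenic near Stil), at 20.9, 32.2, 46.4 and 21.9 with 9aa-Ins against 14.3, 11.5, 0 and 0 with the empty vector and 0, 2.8, 0 and 12.2 with GATA2. The 9aa-Ins libraries lay above all others. The difference was 26.6 ± 6.58 points over GATA2 (adjusted p = 0.00498) and 23.9 ± 6.58 points over the empty vector (adjusted p = 0.0298). The latter call was lost without hi-77-/- empty replicate 3 or 4 or without 9aa-Ins replicate 2 or 3 (18.53 to 23.28 points, adjusted p up to 0.111), and with all deposited peaks it was 35.36 points (adjusted p = 0.108).

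Lyl1 (ENSMUSG00000034041.4, plus strand, chr8:84701457-84704715) lies on a chromosome whose peaks ranked lower throughout the deleted cells. On chromosome 8, 9.18% of 3422 tested regions were higher and 44.7% lower after enhancer loss, with a median difference of -9.85 points, and the lists held 3743 to 3908 chromosome 8 peaks in hi-77+/+ empty against 2551 to 2864 in hi-77-/- empty, 2477 to 2884 with GATA2 and 2539 to 2760 with 9aa-Ins. The 3 higher and 10 lower calls near Lyl1 are to be read against those shares. With the median of each chromosome taken out of each library, the counts near Lyl1 became 6 higher and 4 lower. In that setting a region without a peak stays at 0, so a peak that fell out of a list is not restored. Among peaks narrower than 1 kb the difference in region number near Lyl1 was -2.50 (exact permutation p = 0.143), and the part of the chromosome shift in the region number was not tested.

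The Lyl1 promoter was among the strongest peaks of every library. At Lyl1 -0.5 kb (chr8:84699321-84702551) the percentiles ran from 95.6 to 98.5 in hi-77+/+ empty, 98.6 to 99.7 in hi-77-/- empty, 97.9 to 98.5 with GATA2 and 98.3 to 99.6 with 9aa-Ins. The difference after enhancer loss was 2.1 ± 0.81 points (adjusted p = 0.0418), and it missed the threshold in 6 of 10 other settings. With chromosome medians removed it was 10.59 points (limma adjusted p = 4.49e-08). That setting shifts every peak of the chromosome alike, while percentiles this near 100 have little room to move, so this value is not read as a larger difference. The call was lost without hi-77+/+ empty replicate 2, 3 or 4 (adjusted p of 0.136, 0.0511 and 0.086) or hi-77-/- empty replicate 1, 2 or 3 (0.0661, 0.0735 and 0.0819).

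Several regions up to 50 kb from Lyl1 differed in both directions, and their calls held with chromosome medians removed. Lyl1 -19 kb (chr8:84682151-84682735, intron of Nacc1) was at 0 in all hi-77+/+ empty libraries, 56.7, 57.3, 41.4 and 45.8 in hi-77-/- empty, 8.5, 40.5, 5.6 and 0 with GATA2 and 70.9, 73.0, 73.4 and 72.1 with 9aa-Ins. The groups did not overlap in any of the 4 comparisons. Enhancer loss went with 50.3 ± 7.96 points (adjusted p = 5.7e-05), GATA2 with -36.7 ± 7.96 points (adjusted p = 0.00194), and 9aa-Ins exceeded GATA2 by 58.7 ± 7.96 points (adjusted p = 2.02e-05), whereas its difference from the empty vector, 22.0 ± 7.96 points, did not pass (adjusted p = 0.117). Fold enrichments in the full lists were 11.6, 12, 8.82 and 9.60 in hi-77-/- empty, 4.76, 7.93, 4.90 and 5.45 with GATA2 and 22.1, 22.8, 21.8 and 20.1 with 9aa-Ins, and 5.35 in 1 hi-77+/+ empty library.

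Lyl1 -10.6 kb (chr8:84690622-84691134, exon of Trmt1) had percentiles of 3.8, 0, 4.8 and 0 in hi-77+/+ empty, 59.9, 54.3, 46.4 and 52.4 in hi-77-/- empty, 0 in all 4 GATA2 libraries and 45.5, 53.4, 18.3 and 40.9 with 9aa-Ins. GATA2 libraries lay below all hi-77-/- empty and all 9aa-Ins libraries. The differences were 51.0 ± 7.27 points for enhancer loss (adjusted p = 1.79e-05), -53.2 ± 7.27 for GATA2 (adjusted p = 1.83e-05) and 39.5 ± 7.27 for 9aa-Ins against GATA2 (adjusted p = 0.000389). In the more significant 50% of each list the differences for enhancer loss and GATA2 at Lyl1 -19 kb and Lyl1 -10.6 kb were 7.02, -7.02, 8.26 and -8.26 points and did not pass (adjusted p of 0.263, 0.367, 0.0775 and 0.129). There the 9aa-Ins difference from GATA2 at Lyl1 -10.6 kb was 1.72 points (adjusted p = 0.838).

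Downstream of Lyl1, 1 region within Nfix was higher with GATA2. Lyl1 +29.4 kb (chr8:84730527-84731176, intron of Nfix) had 32.6, 16, 4.8 and 0 in hi-77+/+ empty, 0 in every hi-77-/- empty and 9aa-Ins library and 28.1, 55.1, 54.4 and 53.0 with GATA2. GATA2 replicate 1 overlapped with hi-77+/+ empty, and no GATA2 library overlapped with hi-77-/- empty or 9aa-Ins. The GATA2 mean was 47.6 ± 7.48 points above hi-77-/- empty and above 9aa-Ins, which were both at 0. It was the GATA2 libraries that brought the region into the test, so no test is read for it. In the full lists 1 hi-77-/- empty and 3 9aa-Ins libraries had a peak here, with fold enrichments of 3.15 to 4.88 beside 5.82 to 10.2 with GATA2. Its window holds 3 GATA motifs, the most of the 8 shown.

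Lyl1 +24.6 kb (chr8:84725805-84726313) was at 71.4, 79.7, 71.7 and 71.9 in hi-77+/+ empty, 24.3, 0, 19.6 and 0 in hi-77-/- empty, 49.7, 12.3, 49.8 and 59.4 with GATA2 and 45.5, 48.7, 30.5 and 27.9 with 9aa-Ins. Every deleted library lay below the intact ones. Enhancer loss went with -62.7 ± 9.23 points (adjusted p = 2.81e-05), which was -54.66 points with chromosome medians removed (adjusted p = 9.31e-05). GATA2 was 31.8 ± 9.23 points above the empty vector (adjusted p = 0.0171) and 9aa-Ins 27.2 ± 9.23 points (adjusted p = 0.0903), and 9aa-Ins and GATA2 differed by -4.7 ± 9.23 points (adjusted p = 0.806). The GATA2 call was lost without hi-77-/- empty replicate 2 or 4 or without GATA2 replicate 3 or 4 (26.3 to 29.5 points, adjusted p up to 0.0692) and in 4 of 10 other settings. At Lyl1 -46.6 kb (chr8:84654544-84655157, intergenic near Ier2) the hi-77+/+ empty libraries were at 71.4, 55.6, 58.4 and 43.6 and the hi-77-/- empty libraries at 14.3, 0, 0 and 0, a difference of -53.7 ± 8.48 points (adjusted p = 5.9e-05) that was -45.76 points with chromosome medians removed (adjusted p = 0.000234).

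Lmo2 (ENSMUSG00000032698.15, plus strand, chr2:103957986-103981878) had more regions higher than lower after enhancer loss in the main lists, a split that turned with the peak list. Of 22 tested regions, 8 were higher and 3 lower in hi-77-/- empty than in hi-77+/+ empty, and 1 was higher and 3 lower with GATA2. After enhancer loss it was 3 higher and 5 lower of 30 with all deposited peaks and 3 and 4 of 13 in the more significant 50% of each list. Over all tested regions the shares were 9.05% and 22.0% with all deposited peaks and 23.4% and 21.2% in the more significant 50%. The difference in the number of regions was 3.75 in the main lists (exact permutation p = 0.114) and -3.5 with all deposited peaks (exact permutation p = 0.343). On chromosome 2 as a whole, 19.9% of tested regions were higher and 17.5% lower after enhancer loss, and 7.31% and 12.7% with GATA2.

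At Lmo2 -21.2 kb (chr2:103936587-103937056, intergenic) no hi-77+/+ empty or GATA2 library had a peak in its list, the hi-77-/- empty libraries were at 62.6, 64.6, 50.7 and 59.6 and the 9aa-Ins libraries at 7.8, 22.6, 35.3 and 40.9. The 9aa-Ins values lay between those of the other deleted groups without touching either. The difference was 59.4 ± 7.14 points for enhancer loss (adjusted p = 2.77e-06) and of the same size and opposite sign for GATA2 (adjusted p = 4.58e-06). 9aa-Ins was lower than the empty vector by 32.7 points (-32.7 ± 7.14, adjusted p = 0.00589) and 26.6 ± 7.14 points above GATA2 (adjusted p = 0.00879). The former was -10.32 points with all deposited peaks (adjusted p = 0.462), and the latter was 0.00 points in the more significant 50% of each list (adjusted p = 1.0). Fold enrichments in the full lists were 13.1, 14.1, 10.2 and 12.6 in hi-77-/- empty and 8.20, 9.24, 9.91 and 10.4 with 9aa-Ins, with 3.07 and 4.42 in 2 hi-77+/+ empty libraries and no peak in any GATA2 library.

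Lmo2 -56.3 kb (chr2:103901477-103901993, intergenic) followed the same order, with 0 in every hi-77+/+ empty and GATA2 library, 39.0, 54.3, 50.7 and 41.8 in hi-77-/- empty and 26.1, 22.6, 35.3 and 44.3 with 9aa-Ins. The 9aa-Ins libraries overlapped with hi-77-/- empty and not with GATA2. GATA2 was 46.5 points below the empty vector (-46.5 ± 6.45, adjusted p = 2.19e-05), 9aa-Ins was 32.1 ± 6.45 points above GATA2 (adjusted p = 0.000881) and -14.4 ± 6.45 points from the empty vector (adjusted p = 0.243).

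A single Lmo2 region was called higher with GATA2. Lmo2 -64.1 kb (chr2:103893682-103894168, intergenic) had 39.4, 36.8, 4.8 and 5.7 in hi-77+/+ empty, 44.5, 57.3, 41.4 and 31.7 in hi-77-/- empty, 78.4, 74.2, 84.9 and 84.4 with GATA2 and 0, 36.1, 3.1 and 27.9 with 9aa-Ins. GATA2 libraries were above all 12 others. The difference was 36.7 ± 9.66 points over the empty vector (adjusted p = 0.00895), and 9aa-Ins fell by 63.7 ± 9.66 points relative to GATA2 (adjusted p = 6.44e-05). With 50% coverage required the GATA2 difference was 25.05 points (adjusted p = 0.432). Near the element named Lmo2 -75, Lmo2 -76.7 kb had a peak in 2 hi-77+/+ empty libraries, at 44.2 and 33.2, in hi-77-/- empty replicate 4, at 7.5, and in GATA2 replicates 1 and 2, at 8.5 and 24.1, and passed no test. In the full lists it had a peak in 4 hi-77+/+ empty, 2 hi-77-/- empty, 3 GATA2 and 2 9aa-Ins libraries.

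The region called higher with 9aa-Ins was Lmo2 -11.1 kb (chr2:103946594-103947271), at 79.3, 77.1, 77.8 and 69.7 with 9aa-Ins, 39.0, 68.4, 35.5 and 17.3 with the empty vector, 49.7, 24.1, 58.1 and 44.4 with GATA2 and 0, 16, 15.2 and 0 in hi-77+/+ empty. The 9aa-Ins libraries lay above all others. They exceeded the empty vector by 35.9 ± 9.35 points (adjusted p = 0.0212), and GATA2 by 31.9 ± 9.35 points (adjusted p = 0.0161, and 0.0657 without GATA2 replicate 2). The former call was lost without hi-77-/- empty replicate 1, 3 or 4 (adjusted p of 0.0513, 0.061 and 0.084) or without 9aa-Ins replicate 1, 2 or 3 (0.0618, 0.063 and 0.0675). Over the proximal Lmo2 transcript start, Lmo2 +12.1 kb (chr2:103969354-103970819) was open in all 16 libraries and lower after enhancer loss, from 89.6, 91, 86.4 and 92.1 to 77.7, 76.3, 84.6 and 81.5 without overlap (-9.8 ± 2.78 points, adjusted p = 0.00863, and 0.25 among peaks narrower than 1 kb and 0.667 with 50% coverage required). Group means were 78.1 with GATA2 and 71.3 with 9aa-Ins. No region lay over the annotated 5′ end of Lmo2.

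**Figure D3:**
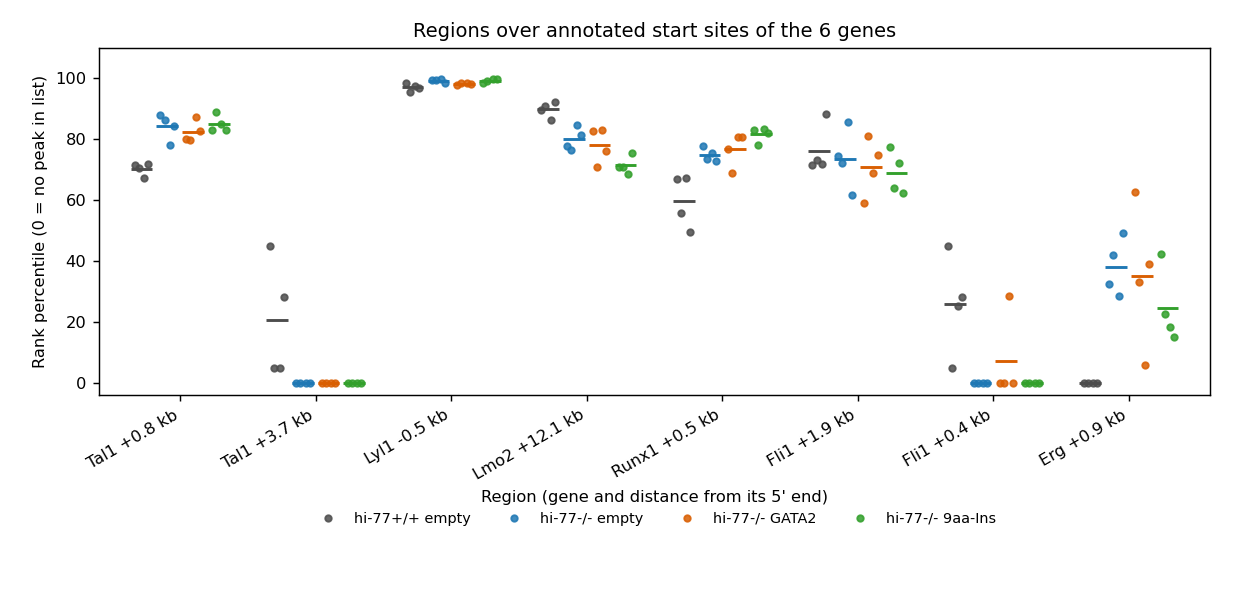
Rank percentile (y axis, 0 where the list had no peak) of regions over annotated start sites of the 6 genes in each library (points) with group means (bars). Lyl1 -0.5 kb lies above 95 in all 16 libraries, and Erg +0.9 kb is at 0 in hi-77+/+ empty and above 0 in each of the other 12 libraries, although the full deposited lists hold a peak there in all 16.

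Runx1 (ENSMUSG00000022952.17, minus strand, chr16:92601466-92826149) had the largest share of regions gained after enhancer loss of the 6 genes, 9 higher and 1 lower of 17 tested, against 25.9% higher and 17% lower on chromosome 16. With all deposited peaks it was 7 higher and 1 lower. GATA2 against the empty vector gave 1 higher and 6 lower, and 9aa-Ins gave 0 higher and 1 lower. All of the regions higher after enhancer loss except Runx1 +0.5 kb and Runx1 +24.7 kb lay upstream of the 5′ end.

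The most distant of them, Runx1 -95.8 kb (chr16:92921704-92922264, intergenic), had no peak in hi-77+/+ empty, 69.2, 78.9, 63.5 and 75.2 in hi-77-/- empty, 0, 12.3, 0 and 38.8 with GATA2 and 59.3, 71.9, 68.5 and 70.9 with 9aa-Ins. GATA2 libraries were below all hi-77-/- empty and 9aa-Ins libraries, which overlapped with each other. Enhancer loss went with 71.7 ± 7.93 points (adjusted p = 1.16e-06), GATA2 with -58.9 ± 7.93 (adjusted p = 1.68e-05) and 9aa-Ins with -4.0 ± 7.93 (adjusted p = 0.933), and 9aa-Ins was 54.9 ± 7.93 points above GATA2 (adjusted p = 3.87e-05). The full lists held no peak here in hi-77+/+ empty, fold enrichments of 15.2, 20.5, 12.9 and 18.6 in hi-77-/- empty, 5.94 and 8.18 in GATA2 replicates 2 and 4, and 17, 22.2, 19.2 and 19.5 with 9aa-Ins.

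Runx1 -78 kb (chr16:92903786-92904495, intergenic) showed a partial form of this pattern. Its percentiles were 0 in hi-77+/+ empty, 77.7, 70.3, 70.1 and 75.2 in hi-77-/- empty, 18.1, 55.1, 37.5 and 49.0 with GATA2 and 65.7, 71.9, 69.8 and 77.3 with 9aa-Ins. The GATA2 libraries fell between the intact cells and the other deleted groups. The full lists held fold enrichments of 5.35, 4.61 and 6.62 in 3 hi-77+/+ empty libraries and of 14.9 to 18.9 in hi-77-/- empty. The differences were 73.3 ± 6.99 points for enhancer loss (adjusted p = 2.1e-07), -33.4 ± 6.99 for GATA2 (adjusted p = 0.0014) and 31.3 ± 6.99 for 9aa-Ins against GATA2 (adjusted p = 0.00223). The enhancer-loss, GATA2 and 9aa-Ins against GATA2 calls at Runx1 -95.8 kb and Runx1 -78 kb held in all 10 other settings and without any one library.

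Runx1 -41.4 kb (chr16:92867111-92867928, intergenic) differed between intact and deleted cells without moving with either vector. It was at 0, 0, 45.6 and 0 in hi-77+/+ empty, 69.2, 68.4, 63.5 and 65.4 in hi-77-/- empty, 59.0, 64.5, 70.8 and 66.5 with GATA2 and 64.2, 69.5, 75.7 and 58.9 with 9aa-Ins. The 12 deleted libraries overlapped with each other and lay above all intact ones. The difference for enhancer loss was 55.2 ± 8.16 points (adjusted p = 2.89e-05, and 0.183 with 50% coverage required), and those for GATA2 and 9aa-Ins were -1.4 and 0.4 ± 8.16 points (adjusted p = 0.969 and 1.0).

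Inside the gene, Runx1 +61.1 kb (chr16:92764782-92765239, intron of Runx1) was the region higher with GATA2. It had 0, 0, 39.9 and 0 in hi-77+/+ empty, 0 in all hi-77-/- empty libraries, 54.8, 64.5, 58.1 and 38.8 with GATA2 and 30.8, 0, 0 and 0 with 9aa-Ins. The GATA2 libraries were above all others except that replicate 4 lay below hi-77+/+ empty replicate 3. The increase over the empty vector was 54.0 ± 9.35 points, and 9aa-Ins was 46.3 ± 9.35 points below GATA2. The region entered the test through the GATA2 libraries, so no test is read for it in the main lists. With all deposited peaks 9aa-Ins differed from GATA2 by -26.33 points (adjusted p = 0.14). Fold enrichments in those lists were 10.7, 7.40, 4.63 and 4.88 with 9aa-Ins beside 7.94, 11.9, 9.18 and 8.18 with GATA2.

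At the enhancer called Runx1 +23, which is active in the first blood stem cells, the nearest region was Runx1 +24.7 kb (chr16:92800503-92802308, intron). It was among the strong peaks of all libraries, at 84.4 to 90.3 in hi-77+/+ empty, 89.6 to 92.8 in hi-77-/- empty, 91.4 to 93.3 with GATA2 and 92.4 to 93.1 with 9aa-Ins. The difference for enhancer loss was 3.5 ± 1.31 points (adjusted p = 0.0394), which missed the threshold in 7 of 10 other settings. It was lost without hi-77+/+ empty replicate 2 or 3 (adjusted p of 0.149 and 0.0751) or hi-77-/- empty replicate 1, 3 or 4 (0.106, 0.0586 and 0.0711). Over the 5′ end, Runx1 +0.5 kb (chr16:92824674-92826535) was at 66.9, 55.6, 67.1 and 49.6 in hi-77+/+ empty and 77.7, 73.5, 75.3 and 72.8 in hi-77-/- empty, without overlap. The difference was 15 ± 3.78 points (adjusted p = 0.00374), 4.21 points with all deposited peaks (adjusted p = 0.256) and 13.98 points among peaks narrower than 1 kb (adjusted p = 0.613). Runx1 +3.8 kb was the region lower with 9aa-Ins, at 50.9, 69.5, 68.5 and 54.9 against 74.6, 77.7, 72.0 and 75.2 with the empty vector (-13.9 ± 4.04 points, adjusted p = 0.0417). That call was lost in 7 of 10 other settings, without any 1 of hi-77-/- empty (adjusted p of 0.0599 to 0.109), without GATA2 replicate 4 (0.0526) and without 9aa-Ins replicate 1 or 4 (0.143 and 0.147). The start sites of shorter Runx1 transcripts lie outside the 100 kb window.

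**Figure D4:**
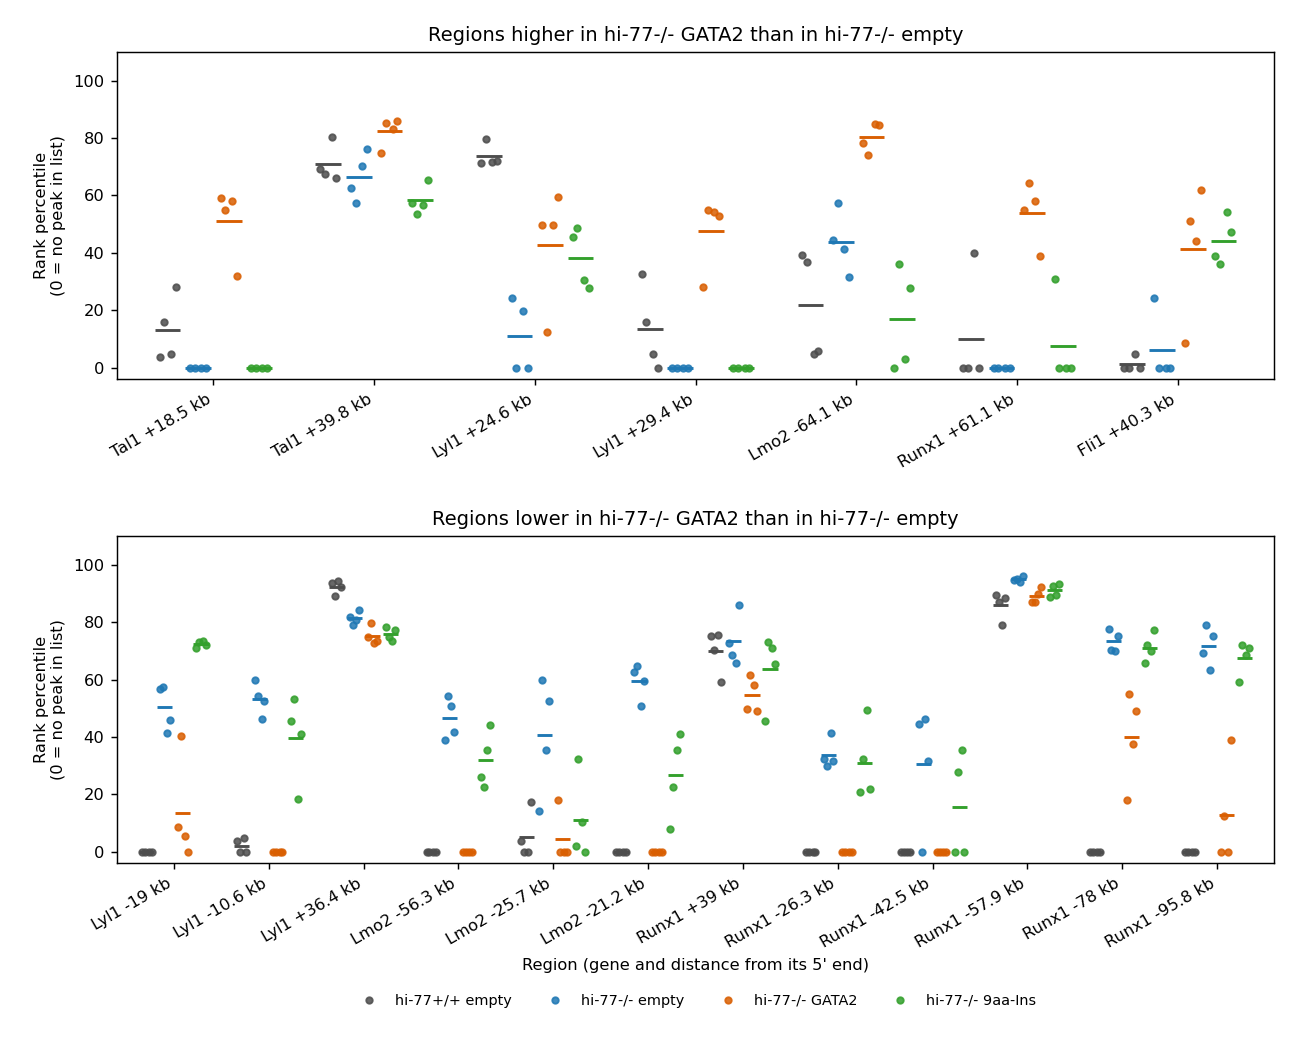
Rank percentile (y axis, 0 where the list had no peak) in each library (points) with group means (bars) for 7 of the 8 regions near the 6 genes called higher and the 12 called lower with GATA2 than with the empty vector in hi-77-/- cells. In the upper panel the 9aa-Ins libraries are at 0 at Lyl1 +29.4 kb and Tal1 +18.5 kb. In the lower panel 7 of the 12 regions are at 0 in every hi-77+/+ empty library, among them Runx1 -78 kb, Lmo2 -21.2 kb and Lyl1 -19 kb, where the full deposited lists hold a peak in 3, 2 and 1 of these libraries.

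Fli1 (ENSMUSG00000016087.13, minus strand, chr9:32422204-32542861) had more calls for enhancer loss than for any other comparison, as did the tested regions as a whole. Of its 17 tested regions, 4 were higher and 2 lower after enhancer loss (23.5% and 11.8%, against 21.2% and 19.2% of all). With GATA2 1 was higher (5.88%, against 8.50%) and with 9aa-Ins 1 (5.88%, against 5.29%). None was lower with either, against 12.4% and 1.75% of all. On chromosome 9, 23% of tested regions were higher and 15.7% lower after enhancer loss.

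Fli1 +33 kb (chr9:32509506-32510309, intron of Fli1) was at 39.4, 4.7, 0 and 0 in hi-77+/+ empty, 56.7, 68.4, 63.5 and 65.4 in hi-77-/- empty, 59.0, 51.1, 66.6 and 62.0 with GATA2 and 64.2, 61.0, 71.1 and 66.9 with 9aa-Ins. All deleted libraries were above the intact ones and overlapped with each other. The difference for enhancer loss was 52.5 ± 7.53 points (adjusted p = 2.13e-05). Fli1 -13.6 kb (chr9:32556107-32556779, intergenic), nearest to the element named Fli1 -15, was at 32.6, 50.4, 50.4 and 59.0 in hi-77+/+ empty and 72.9, 76.3, 73.7 and 77.5 in hi-77-/- empty, a gain of 27.0 ± 4.78 points (adjusted p = 0.000184). Both calls held in all 10 other settings and without any one library.

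Fli1 +40.3 kb (chr9:32502303-32502793, intron of Fli1) was called higher with GATA2 and, in its own test, with 9aa-Ins. Its percentiles were 0, 0, 4.8 and 0 in hi-77+/+ empty, 24.3, 0, 0 and 0 in hi-77-/- empty, 8.5, 51.1, 44.3 and 62.0 with GATA2 and 38.8, 36.1, 54.4 and 47.4 with 9aa-Ins. The 9aa-Ins libraries were above all hi-77-/- empty libraries, and GATA2 replicate 1 was not. The differences from the empty vector were 35.4 ± 9.53 points for GATA2 (adjusted p = 0.0105) and 38.1 ± 9.53 points for 9aa-Ins (adjusted p = 0.0163), and 9aa-Ins and GATA2 differed by 2.7 ± 9.53 points (adjusted p = 0.913). The 9aa-Ins call was lost without hi-77-/- empty replicate 3 or 4 or without 9aa-Ins replicate 3 or 4 (34.69 to 37.05 points, adjusted p of 0.05 to 0.0673), and the GATA2 difference was 28.47 points with all deposited peaks (adjusted p = 0.186) and 12.78 points with 50% coverage required (adjusted p = 0.448).

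At the Fli1 5′ end, the broad region Fli1 +1.9 kb (chr9:32539956-32541970) was open in every library, with group means of 76.1, 73.5, 70.9 and 69.0 from hi-77+/+ empty to 9aa-Ins and SDs of 7.1 to 9.9, and passed no test. The small region beside it, Fli1 +0.4 kb (chr9:32542151-32542677), had a peak in all hi-77+/+ empty libraries, at 45, 4.7, 25.2 and 28.0, in no hi-77-/- empty or 9aa-Ins library and in GATA2 replicate 3, at 28.5. In the full lists a peak was present in 1 hi-77-/- empty, 3 GATA2 and 2 9aa-Ins libraries, with fold enrichments of 3.70 to 6.31 beside 6.15 to 9.36 in hi-77+/+ empty. The region entered the test through the intact libraries, so no test is read for it. No region lay within 3 kb of 12 kb downstream of this 5′ end, where the element named Fli1 +12 would be by this count.

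Erg (ENSMUSG00000040732.20, minus strand, chr16:95359169-95586593) had the fewest regions. After enhancer loss 2 of its 6 tested regions were higher (33.3%, against 21.2% of all tested regions and 25.9% on chromosome 16). Erg +0.9 kb (chr16:95585507-95585949), over the 5′ end, was at 0 in hi-77+/+ empty, 32.4, 42.0, 28.3 and 49.3 in hi-77-/- empty, 62.6, 33.2, 5.6 and 38.8 with GATA2 and 42.4, 22.6, 18.3 and 15 with 9aa-Ins. The 3 deleted groups overlapped with each other. The difference for enhancer loss was 38 ± 9.67 points (adjusted p = 0.00401), and 24.53 points with all deposited peaks (adjusted p = 0.0868). The full lists held a peak here in all 16 libraries, with fold enrichments of 4.68, 5.38, 5.27 and 5.89 in hi-77+/+ empty and 7.98, 9.17, 7.46 and 10.2 in hi-77-/- empty.

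Erg -54.3 kb (chr16:95640570-95641226, intergenic) was at 13.6, 0, 0 and 0 in hi-77+/+ empty, 62.6, 54.3, 60.8 and 67.0 in hi-77-/- empty, 62.6, 46.3, 61.3 and 68.4 with GATA2 and 76.3, 71.9, 69.8 and 74.3 with 9aa-Ins. The 9aa-Ins libraries were above all others. Enhancer loss went with 57.8 ± 6.0 points (adjusted p = 5.23e-07, and 0.489 with 50% coverage required), GATA2 with -1.5 ± 6.0 (adjusted p = 0.935) and 9aa-Ins with 11.9 ± 6.0 (adjusted p = 0.322). Fold enrichments in the full lists were 6.68, 3.84 and 4.42 in 3 hi-77+/+ empty libraries, 13.1, 11.3, 12.2 and 15 in hi-77-/- empty, 8.99, 8.59, 9.80 and 14.3 with GATA2 and 25.2, 22.2, 19.8 and 21.3 with 9aa-Ins. With either vector, and between the vectors, 0 of the 6 tested regions near Erg passed in limma. No region lay within 3 kb of 85 kb downstream of this 5′ end. The element named Erg +85 may be counted from another start site of Erg, and it was not looked for elsewhere.

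**Figure D5:**
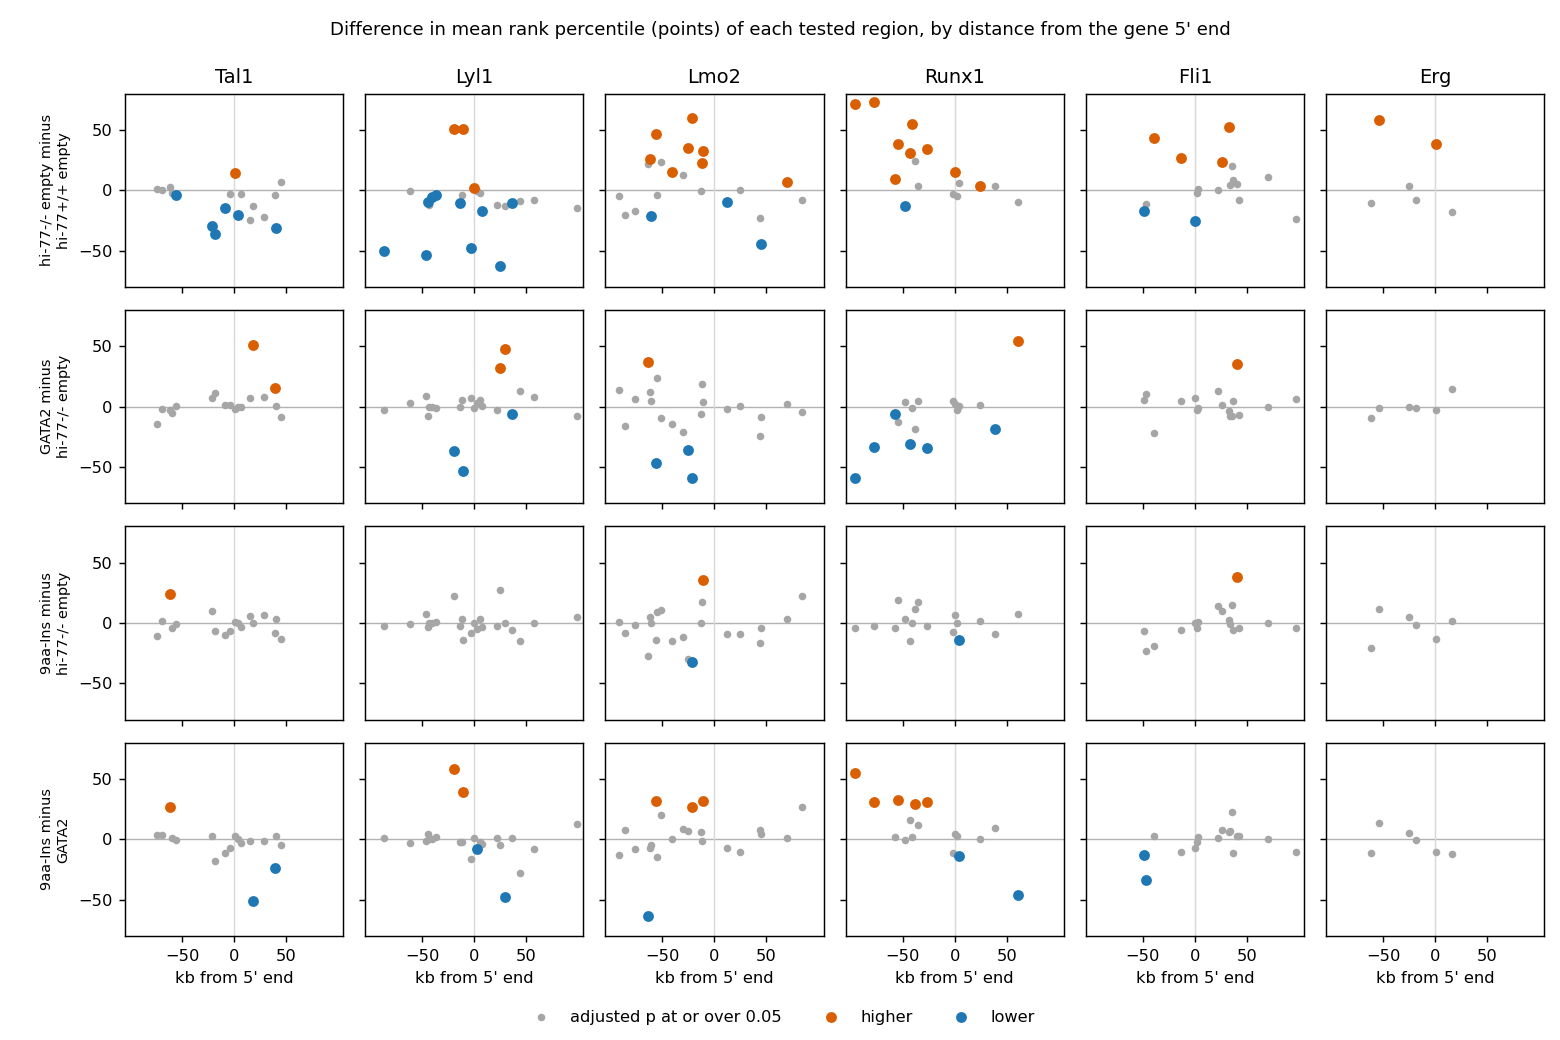
Difference in mean rank percentile (points, y axis) of all but 1 of the 104 tested regions against its distance from the gene 5′ end (kb, x axis), with comparisons in rows and genes in columns. Orange and blue points passed an adjusted p of 0.05. Upstream of Runx1, 7 points are orange in the top row and 5 are blue in the second, and near Erg every point below the top row is grey.

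Motifs were counted in the same 201-base windows. Of the 8 regions higher with GATA2, 6 held a GATA motif (75.0%), as did 3 of the 12 lower with GATA2 (25.0%), beside 26.5% of all regions. Lyl1 +29.4 kb had 3 matches, Tal1 +18.5 kb had 2, and Tal1 +39.8 kb, Lmo2 -64.1 kb, Runx1 +61.1 kb and Fli1 +40.3 kb had 1 each. Lyl1 +29.4 kb and Runx1 +61.1 kb entered the test through the GATA2 libraries, so the share among the 8 rests in part on calls that are not read. The ETS core AGGAAG, on either strand, was in 4 of the 8 (50%) and 9 of the 12 (75.0%), beside 39.1% of all regions. For the RUNX core TGTGGT the counts were 2 (25.0%) and 4 (33.3%), beside 24.6%, and for the E-box CANNTG 6 (75.0%) and 10 (83.3%), beside 66.9%. A composite was counted as an E-box, 6 to 14 bases and a GATA motif in that order on either strand. At such composites TAL1 and LMO2 complexes join GATA factors. The composite was in 1 of the 8, Lyl1 +29.4 kb, and in 2 of the 150 regions (1.33%), beside 2.04% of all. With 8 and 12 regions these shares are descriptions, and a match is not evidence of binding.

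Among the 27 regions higher after enhancer loss, 18 held the ETS core (66.7%) and 10 the RUNX core (37.0%). Among the 23 lower, 5 (21.7%) and 2 (8.70%) did, beside 39.1% and 24.6% of all regions. The GATA motif was in 10 of the 27 (37.0%) and 3 of the 23 (13.0%), beside 26.5% of all. Of the 23 lower regions, 10 lay near Lyl1 on chromosome 8, where 44.7% of all tested regions were lower. These shares too are descriptions without a test. In the direct comparison, 6 of the 10 regions lower with 9aa-Ins than with GATA2 held a GATA motif (60%), and 2 of the 11 that were higher did (18.2%). This is not a separate count from that of the regions higher with GATA2, as the same GATA2 libraries enter both. Tal1 +18.5 kb, Tal1 +39.8 kb, Lyl1 +29.4 kb, Lmo2 -64.1 kb and Runx1 +61.1 kb are in both sets, and no test is read for Lyl1 +29.4 kb and Runx1 +61.1 kb.

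Genes that work with the heptad were described by the same counts. Around 14 partners and relatives (Ldb1, Ssbp2, Ssbp3, Tcf3, Tcf12, Cbfb, Tal2, Lmo1, Lmo4, Runx2, Runx3, Ets1, Etv6 and Spi1) there were 190 tested regions. Of these 42 were higher and 42 lower after enhancer loss (22.1% each, against 21.2% and 19.2% of all tested regions) and 11 higher and 26 lower with GATA2 (5.79% and 13.7%, against 8.50% and 12.4%). With 9aa-Ins 8 were higher and 4 lower (4.21% and 2.11%, against 5.29% and 1.75%), and 9aa-Ins against GATA2 gave 29 and 13 (15.3% and 6.84%, against 16% and 8.22%). Runx3, a paralog of Runx1, had 16 regions higher and 0 lower after enhancer loss and 0 higher and 10 lower with GATA2, of 29 tested on chromosome 4. Cbfb, which encodes the common partner of RUNX proteins and like Lyl1 lies on chromosome 8, had 0 higher and 13 lower of 15 after enhancer loss, where 44.7% of all tested regions of that chromosome were lower. Ldb1, whose protein joins LMO2 complexes, had 0 higher and 4 lower of 14 after enhancer loss and 0 in either direction with GATA2.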

How the data were processed

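ATAC-Seq was analysed in 16 libraries, 4 per group, grouped by the genotype and vector in the labels. Per the submitters' processing notes and the methods, the authors trimmed reads with Trim Galore 0.4.1, aligned them to mm10 with Bowtie2 2.2.5, removed duplicates with Picard 2.26.0, shifted read ends for Tn5 and ran MACS2 on every library separately. The deposited peak lists hold an integer score, a fold enrichment (a ratio over background), the -log10 p, the -log10 q and the summit offset, and no counts. The count test of the methods was therefore replaced by a test on ranks.

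In each library the 49000 peaks with the highest deposited -log10 p on chromosomes 1 to 19 and X were kept, ties being broken by fold enrichment and then position. Tied peaks shared their mean rank. Peaks that overlapped by at least 1 bp across libraries were merged, and rank percentiles of regions with a peak in at least 4 of 16 libraries were fitted with limma 3.58.1 in R 4.3.3 (1 fit over the 4 groups, trend and robust, Benjamini-Hochberg, threshold 0.05). Numbers of regions per gene were compared by two-sided exact permutation tests. The procedure was tested on simulated data.

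Regions were named when they lay over a start site of the 6 genes, nearest within 3 kb of a known element, or among the up to 8 strongest calls of each comparison or up to 8 calls by presence. Of the regions and marker genes this covers, 1 each is not reported here, although the region stays in the counts. Members, lists and tests were chosen with earlier results of these data known. Alternatives were all deposited peaks, the more significant 50% of each list, a -log10 q of at least 5, peaks narrower than 1 kb, 50% coverage of the region, no filter on libraries, log2 ranks, chromosome medians removed, a 50 kb window, presence calls, the replicate block and leaving out each library. Leaving out peaks tied at the end of a list, and leaving out libraries for the number of regions, were added after seeing the data.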

Additional observations from a re-analysis of the deposited data

Results flagged for a closer look

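In 20 of 156 groups of 4 libraries, 1 library lay apart from the other 3 by Dixon's criterion (gap over range), which chance meets in about 1 group in 20. Many of these groups hold 3 libraries with no peak and 1 with a peak, so that the gap is the whole range.

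In the number of regions, the library apart was hi-77-/- empty replicate 2 near Tal1 (15), hi-77-/- empty replicate 1 near Lyl1 (20), 9aa-Ins replicate 3 near Lyl1 (20), GATA2 replicate 1 near Fli1 (12, the lowest) and GATA2 replicate 4 near Erg (6).

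In rank percentile among hi-77+/+ empty libraries, replicate 3 was apart at Runx1 +61.1 kb (39.9), Runx1 -41.4 kb (45.6) and Fli1 +40.3 kb (4.8), replicate 1 at Erg -54.3 kb (13.6), Tal1 -62 kb (13.6) and Fli1 +33 kb (39.4), replicate 2 at Lyl1 +24.6 kb (79.7) and replicate 4 at Fli1 +1.9 kb (88.4). Among hi-77-/- empty libraries it was replicate 1 at Lyl1 -46.6 kb (14.3) and at Fli1 +40.3 kb (24.3) and replicate 4 at Lmo2 -76.7 kb (7.5). With GATA2, replicate 4 was the lowest at Tal1 +18.5 kb (31.9), replicate 1 the lowest at Lyl1 +29.4 kb (28.1) and replicate 3 the highest at Fli1 +0.4 kb (28.5). With 9aa-Ins, replicate 1 was apart at Runx1 +61.1 kb (30.8).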

How the results depend on the processing

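Of 53 calls at named regions, 25 held in every setting that tested them, left-out libraries included, and 2 changed direction: Tal1 +0.8 kb for enhancer loss (-12.94 points among peaks narrower than 1 kb) and Tal1 +39.8 kb for GATA2 (-3.00 points with 50% coverage). The cause was not tested. Depth is unknown, and a peak missing from a list may lie just past its end.

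Counts of regions near the 6 genes that moved by over 1.5 times were as follows. With all deposited peaks, 15 were higher and 40 lower for enhancer loss, 9 and 0 for 9aa-Ins, and 38 and 3 for 9aa-Ins against GATA2. With the more significant 50% of each list, 14 were higher for enhancer loss, 3 higher and 5 lower for GATA2, 5 higher for 9aa-Ins, and 7 and 6 for 9aa-Ins against GATA2. With 50% coverage, 13 were lower for enhancer loss, 0 higher for GATA2, 7 higher for 9aa-Ins, and 20 and 5 for 9aa-Ins against GATA2. For 9aa-Ins, 5 were higher on log2 ranks, and 1 was lower with a -log10 q of at least 5, among peaks narrower than 1 kb, and with no filter on libraries. For 9aa-Ins against GATA2, 6 were lower among peaks narrower than 1 kb and 6 higher within 50 kb. Presence calls gave 9 and 5, 4 and 5, 0 and 1, and 4 and 2 in the 4 comparisons. Without 1 library each, the counts were 22 to 28 and 20 to 24 for enhancer loss, 6 to 9 and 9 to 13 for GATA2, 0 to 5 and 1 to 3 for 9aa-Ins, and 9 to 12 and 8 to 11 for 9aa-Ins against GATA2.

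With the replicate block the counts were 26 and 23, 9 and 11, 2 and 1, and 12 and 10. Libraries with the same replicate number did not deviate together in rank (r of -0.054 to 0.092 over 24 pairs, and 11 of 48 best matches with the own number). Among deleted libraries, the targeted interval had bases under peaks in replicate 4 of hi-77-/- empty, GATA2 and 9aa-Ins (609, 246 and 394 bp). The only other such library was 9aa-Ins replicate 3 (607 bp). These values do not show whether the numbers pair the samples.

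The number of regions near a gene passed the exact permutation test (p = 0.0286) in these other settings. For enhancer loss it did near Tal1 with all deposited peaks (-11.0), the more significant 50% (-3.5), peaks narrower than 1 kb (-2.5), 50 kb (-3.0) and 50% coverage (-4.75), near Lmo2 with 50 kb (3.75), and near Fli1 and Erg with the more significant 50% (2.25 and 1.0). For GATA2 it did near Lyl1 with the more significant 50% (-1.25), near Lmo2 with a -log10 q of at least 5 (-6.75), 50 kb (-4.25) and 50% coverage (-6.5) and near Runx1 with 50% coverage (-3.25). For 9aa-Ins it did near Lyl1 with 50% coverage (4.0). For 9aa-Ins against GATA2 it did near Lyl1 with the more significant 50% (1.25), peaks narrower than 1 kb (-6.75) and 50% coverage (6.75), near Lmo2 with all deposited peaks (14.25), a -log10 q of at least 5 (5.75), 50 kb (2.25) and 50% coverage (7.25), and near Runx1 with 50% coverage (4.25). The test was lost for enhancer loss near Runx1 with all deposited peaks (3.75) and near Lyl1 among peaks narrower than 1 kb (-2.5). Without 1 library each, the differences for enhancer loss were 5.42 to 6.42 near Runx1, -7.83 to -6.5 near Lyl1, -4.17 to -2.5 near Tal1 and 2.5 to 4.83 near Lmo2, and that for 9aa-Ins near Lyl1 was 0.5 to 1.25. The test was then passed near Tal1 without hi-77+/+ empty replicate 4 (-4.17), near Lmo2 without hi-77-/- empty replicate 1 (4.83) and for 9aa-Ins near Lyl1 without hi-77-/- empty replicate 1 (1.25), each at the exact permutation p of 0.0286.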
